A study of Mus musculus with 30 samples.

Results

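Distant intergenic non-coding units are stretches of nascent transcription that lie far from every gene of the deposited list and do not run, on their own strand, over a listed copy of a retroviral long terminal repeat (LTR). They were taken from the deposited list of transcription units as the non-coding units at least 20000 bp from every gene of the list on either strand that overlap no LTR-class repeat copy on their own strand. The rule found 9702 of the 42029 non-coding units, which are in turn part of 382367 units of all kinds. Units are built from tiles of 200 bp, so a unit has whole tiles and no exact start, and coordinates are given in mm10.

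TT-seq was used to collect nascent RNA: transcripts labelled over 10 minutes with 4-thiouridine are purified and sequenced, and short-lived transcripts are seen as they are made. The cells were a mouse embryonic stem cell line labelled dTKO with the genotype Suv39h1fl/fl; Suv39h2-/-; Setdb1fl/fl, kept with LIF and serum on gelatin, and this genotype is shared by every group, 0 h included. Suv39h1, Suv39h2 and Setdb1 are the enzymes that place H3K9me3, a histone mark of silent chromatin. The groups are 0 h and 3, 12, 24 and 48 h of auxin (100 µg/ml) together with dTAG13 (0.5 µM), compounds that trigger the breakdown of degron-tagged proteins, with 3 biological repeats of 1 line in each group (n = 3 for every mean below). Each of the 15 libraries was sequenced in 2 runs, which count as 1. The p-values for changes rest on the spread between repeats pooled over all times in 1 fit. They do not measure the spread of the 3 repeats at a single time. No group without the compounds was kept alongside for 48 h, so time in culture and the compounds cannot be told apart.

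Transcription far from genes comes mainly from enhancers and from long intergenic non-coding RNA genes. An active enhancer is usually transcribed on both strands from its centre into short, unstable enhancer RNAs, and that transcription tends to move with the activity of the enhancer. Long intergenic non-coding RNAs (lincRNAs) start at promoters of their own and can run for many kilobases. Another source is repeat DNA, whose promoters are held silent in stem cells in part by H3K9me3.

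Values are reads divided by the deposited size factor of the library, called scaled reads, and they are not divided by length unless "per kb" is written. Between 37.1 and 42.3 M reads per library were recovered, of which 1.89 to 2.15 M lay in the distant units. The 6 markers of embryonic stem cells summed to 12909 to 14246.5 scaled reads at 0 h and 8941 to 9240 at 48 h, and none was near 0. Markers of primitive endoderm, trophectoderm and fibroblasts summed to at most 632.1 in any library, while 4 markers of the rare 2-cell-like state went from 19.1 to 26.6 at 0 h to 768.0 to 879.5 at 48 h. The part of a changed mix of cell states in the results below was not tested, and in bulk samples fewer cells of a type and less RNA per cell cannot be told apart.

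The distant units were mostly short and faint. Their median length was 800 bp, with quartiles at 400 and 2200 bp and a longest unit of 107000 bp, and the median distance to a gene was 75268 bp. Of the 9702 units, 2709 had a mean of at least 10 scaled reads over the 15 libraries and were tested, 6993 were below it, and 5 had no read in any library. GENCODE M21 lists no gene on the same strand for 8475 units (87.4%). It lists a lincRNA for 411, a pseudogene for 613 and a protein-coding gene for 66, and 375 lie inside a GENCODE protein-coding gene on one strand or the other, since that annotation reaches beyond the gene spans of the deposited list. Among the 2709 tested units the median level at 0 h was 6.14 scaled reads per kb, against 16.7 per kb over 15261 tested genes. Units of 400 bp and under had a median of 90.6 per kb and units over 10000 bp one of 3.26 per kb, although a short unit needs more signal per kb to pass the minimum. A partner on the opposite strand with starts facing away within 1000 bp, the layout of an enhancer or of a bidirectional promoter, was present for 574 units (5.92%), against 3.37% of the other non-coding units.

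The sequences shown first are those of distant units that begin within 1000 bp of a RefSeq transcript start on the same strand. There were 128 such units, 84 of them tested, of which 14 were called up and 35 down at 48 h by limma, where 29.3% of all tested non-coding units were called up and 39.4% down. The printed starts belong to the first 3 such units up and the first 3 down at 48 h by the naming rule, with Platr6 added for its name. This set was chosen after the values were seen. Each run has 250 bases before the start in lower case and 50 bases from the start on in capitals, from RefSeq on GRCm38.p6, the patch release of mm10. 4930573H18Rik (chr3:97092736-97093035, minus strand), Gm41326 (chr15:56409926-56410225, plus strand) and Gm34397 (chr9:100392966-100393265, minus strand) rose at 48 h. Gm30536 (chr2:166194173-166194472, plus strand), Gm30085 (chr15:93001260-93001559, plus strand), Gm13657 (chr2:75776631-75776930, plus strand) and Platr6 (chr10:21847563-21847862, minus strand) fell.
4930573H18Rik: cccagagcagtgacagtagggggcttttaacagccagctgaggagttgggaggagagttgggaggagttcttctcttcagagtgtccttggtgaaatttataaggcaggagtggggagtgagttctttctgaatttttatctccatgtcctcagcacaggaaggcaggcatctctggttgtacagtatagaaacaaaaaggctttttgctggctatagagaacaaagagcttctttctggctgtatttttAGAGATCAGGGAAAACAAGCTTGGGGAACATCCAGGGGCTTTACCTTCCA
Gm41326: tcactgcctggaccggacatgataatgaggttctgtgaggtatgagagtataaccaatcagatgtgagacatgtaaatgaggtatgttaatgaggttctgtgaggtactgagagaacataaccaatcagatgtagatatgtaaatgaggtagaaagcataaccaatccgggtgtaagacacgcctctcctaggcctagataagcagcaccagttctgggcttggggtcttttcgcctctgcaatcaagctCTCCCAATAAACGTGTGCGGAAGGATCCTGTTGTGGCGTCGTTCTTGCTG
Gm34397: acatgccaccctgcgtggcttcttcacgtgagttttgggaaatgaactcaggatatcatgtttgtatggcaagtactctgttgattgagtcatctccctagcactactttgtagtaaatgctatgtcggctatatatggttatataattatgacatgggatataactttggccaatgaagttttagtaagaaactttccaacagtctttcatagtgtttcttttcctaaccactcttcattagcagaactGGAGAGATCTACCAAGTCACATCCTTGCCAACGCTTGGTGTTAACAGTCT
Gm30536: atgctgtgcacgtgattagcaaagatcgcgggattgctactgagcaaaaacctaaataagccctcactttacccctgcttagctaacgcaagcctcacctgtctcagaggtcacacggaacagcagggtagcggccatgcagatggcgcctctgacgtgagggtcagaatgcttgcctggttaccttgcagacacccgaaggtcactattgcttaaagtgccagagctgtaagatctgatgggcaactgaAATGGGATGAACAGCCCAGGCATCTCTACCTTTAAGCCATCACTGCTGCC
Gm30085: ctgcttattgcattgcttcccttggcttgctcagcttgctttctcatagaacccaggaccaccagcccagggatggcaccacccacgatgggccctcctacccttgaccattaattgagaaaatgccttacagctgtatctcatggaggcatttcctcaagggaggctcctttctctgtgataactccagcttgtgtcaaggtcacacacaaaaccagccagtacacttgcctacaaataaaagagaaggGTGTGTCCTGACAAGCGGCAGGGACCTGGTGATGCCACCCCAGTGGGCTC
Gm13657: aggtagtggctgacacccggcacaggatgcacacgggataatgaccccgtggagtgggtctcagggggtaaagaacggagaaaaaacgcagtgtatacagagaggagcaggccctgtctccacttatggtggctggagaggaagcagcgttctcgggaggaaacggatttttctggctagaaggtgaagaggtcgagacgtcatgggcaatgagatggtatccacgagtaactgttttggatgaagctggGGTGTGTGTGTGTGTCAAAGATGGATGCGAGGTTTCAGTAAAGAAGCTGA
Platr6: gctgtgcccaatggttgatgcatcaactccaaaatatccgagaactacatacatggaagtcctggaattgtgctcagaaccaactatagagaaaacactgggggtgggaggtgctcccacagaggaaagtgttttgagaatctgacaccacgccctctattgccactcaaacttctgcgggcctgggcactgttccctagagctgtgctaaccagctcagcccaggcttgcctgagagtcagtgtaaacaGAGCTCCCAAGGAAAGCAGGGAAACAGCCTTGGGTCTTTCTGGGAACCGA

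A set of words, each given here with its share, was searched on both strands of these windows. The Gm30085 window holds TCAAGGTCA, the word of the pluripotency factor Esrrb. The Gm30536 and Gm34397 windows hold CACGTG, an E-box bound by factors such as Myc. The 4930573H18Rik window holds TATAAA, the letters of the TATA box, only on the strand opposite to the transcript and far before the start. Gm34397 also holds TGACTCA, the word of AP-1. No searched word was found in Gm41326, Gm13657 or Platr6. Over the 127 different start windows of distant units, ATGCAAAT, the octamer of Pou5f1, was in 7 (5.51%) against 1.74% of all 32851 RefSeq windows of the same length. TCAAGGTCA was in 2 of the 127 (1.57%) against 0.423%, CACGTG in 14 (11.0%) against 7.15%, and TATAAA in 16 (12.6%) against 13.6%. GGGTGTGG, the word of Klf factors, was in 10 (7.87%) against 3.56%, and TGACTCA in 9 (7.09%) against 5.2%. TTGCGTG was in 2 (1.57%) against 1.16% and GATTCAATC, also searched, in 2 (1.57%) against 0.149%. These are matches of letters in 300 bases and no record of binding. The windows of distant units had a median GC content of 50.7%, against 52.7% over all windows.

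Those 7 transcripts differed in level and in timing. The unit at Platr6, a long non-coding RNA named for its association with pluripotency, had 328, 353 and 316 scaled reads at 0 h and 111, 108 and 105 at 48 h. All libraries at 48 h lay far below those at 0 h, and the log2 change was -1.62 with an SE of 0.13 (limma, adjusted p = 4.66e-13). It was already lower at 3 h, at 215 ± 6.82 (SD), by a log2 change of -0.63 (limma, adjusted p = 0.000761). Gm30085, a lincRNA, went from 154, 196 and 156 at 0 h to 19.9, 26.3 and 31.3 at 48 h, a log2 change of -2.67 with an SE of 0.16 (limma, adjusted p = 4.41e-16). Gm30536 went from 48.6 ± 4.41 (SD) to 5.60 ± 2.04, with a log2 change of -2.95 with an SE of 0.23 (limma, adjusted p = 1.69e-13). Gm13657 went from 45.5 ± 4.56 (SD) to 14.2 ± 3.91 and changed by -1.64 (limma, adjusted p = 5.59e-07).

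The 3 that rose had low levels at 0 h, which the ranking by log2 change favours. 4930573H18Rik had 1.63, 1.66 and 0.857 scaled reads at 0 h and 48.0, 46.5 and 41.3 at 48 h, with a log2 change of 4.30 with an SE of 0.33 (limma, adjusted p = 1.41e-13). An LTR copy named MMETn-int overlaps this unit on the opposite strand. Gm41326 had 8.94, 11.7 and 20.6 at 0 h and 74.6, 61.2 and 61.9 at 48 h, a log2 change of 2.26 with an SE of 0.23 (limma, adjusted p = 1.09e-10). Gm34397 was highest in the middle of the course, where 2.76 scaled reads at 0 h became 26.7 ± 9.78 (SD) by 12 h and 35.3 ± 3.86 by 24 h, with 16.0 ± 2.93 left by 48 h.

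Across all tested units the deposited values showed an early balance, a rise at 12 h and growing losses later. At 3 h, limma called 240 of the 2709 up and 215 down (8.86% and 7.94%), where 7.74% and 8.06% of the 15730 tested non-coding units were called. At 12 h, 1060 were called up and 273 down (39.1% and 10.1%), against 29.4% and 11.1% of all. At 24 h the counts were 1072 and 607 (39.6% and 22.4%), against 30.4% and 24.8%, and at 48 h they were 968 and 915 (35.7% and 33.8%), against 29.3% and 39.4%. The median log2 change of the distant units was, in order of time, -0.16, 0.29, 0.17 and -0.06, and over all tested non-coding units it was -0.21, 0.10, -0.06 and -0.28. The count of falls at 3 h was 98 without replicate 2 at 0 h, 113 without replicate 3 at 0 h and 89 without replicate 2 at 3 h, and the 273 falls at 12 h were 167 without replicate 3 at 0 h.

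The balance between rises and falls depends on the scaling, because the median gene itself moved by -0.24, 0.18, -0.08 and -0.37 on the log2 scale at 3, 12, 24 and 48 h. After the libraries were rescaled to an equal median gene, 2722 distant units were tested. At 3 h, 360 were up and 57 down, against a background of 11.0% and 1.88% of 15825 non-coding units. At 12 h it was 978 and 488, against 27.1% and 21.7%, at 24 h 1186 and 564, against 33.7% and 22.7%, and at 48 h 1211 and 540 (44.5% and 19.8%), against 36.4% and 21.7%. The median change at 48 h was 0.31 on that scale.

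The minimum on the mean also admits units that are high only late. When the minimum was set on 0 h alone, 2365 distant units were tested, and 349 of them were up and 1167 down by 48 h (14.8% and 49.3%), against 12.0% and 51.4% of all non-coding units chosen that way. With no minimum, 9697 units entered, of which 2585 were up and 1530 down at 48 h (26.7% and 15.8%), against 24.5% and 22.4% of all. In the authors' deposited table, which uses their own test, 1561 of the 9702 units were marked up and 478 down at 48 h, and 82 were up and 2 down at 3 h. At 48 h that is 16.1% up and 4.93% down, against 16.7% and 6.24% of all 42029 non-coding units, and at 3 h 0.845% were up against 1.21%. The higher share of rises that limma gave with no minimum (26.7% against 24.5%) was thus not seen in the authors' deposited table. Among the 2709 distant units tested here, that table marked 787 up and 375 down at 48 h (29.1% and 13.8%). Its share over all tested non-coding units was not computed, so the limma shares with the minimum have no match there.

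**Figure D1:**
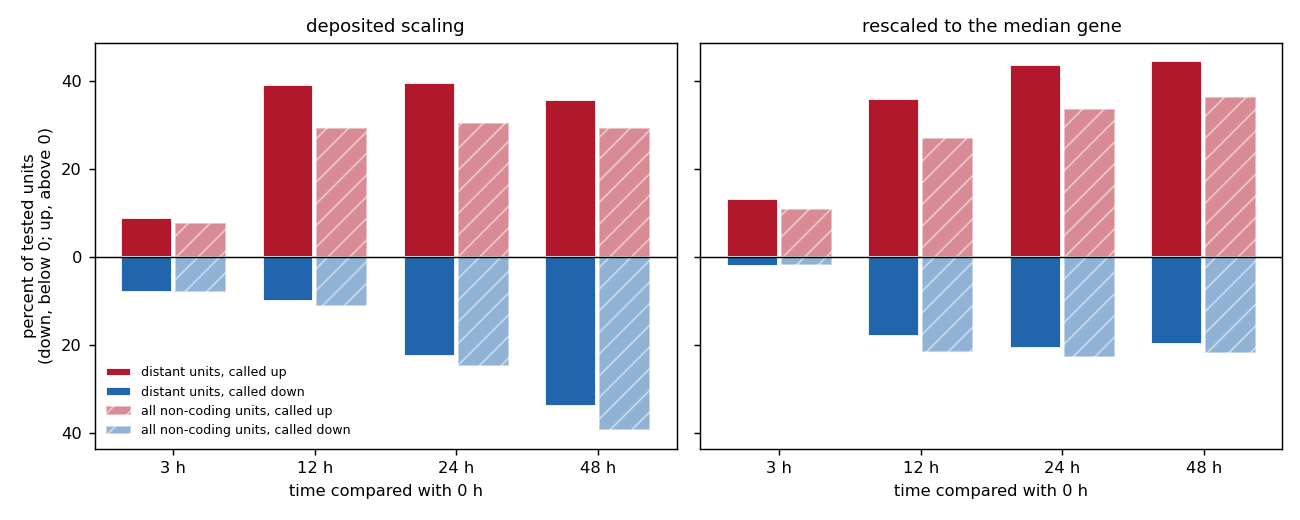
Percent of tested units called up (above 0) and called down (below 0) by limma at each time against 0 h, for the distant units (solid) and all tested non-coding units (hatched), with the deposited scaling on the left and after rescaling to the median gene on the right. At 48 h the distant units go from 35.7% up and 33.8% down to 44.5% up and 19.8% down with the rescaling.

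At 48 h the shares called among the distant units lay between those of 2 related sets of units. At 48 h, 80.8% of the tested units equally far from genes that do run over an LTR copy were called up and 8.70% down. Units under 20000 bp from a gene without an LTR copy had 10.3% up and 51.0% down. Just outside the distance limit, at 15000 to 20000 bp from a gene, 20.1% of 428 units were up and 45.1% down, and just inside it, at 20000 to 25000 bp, 22.2% of 356 were up and 50.0% down.

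The distance from genes went with the direction of change. From 20000 to 50000 bp, 24.4% of 1231 tested units were called up and 46.6% down at 48 h. From 50000 to 100000 bp it was 33.0% up and 32.3% down of 585, from 100000 to 300000 bp 50.6% and 19.3% of 528, and beyond 300000 bp 57.0% and 13.7% of 365. With the minimum set at 0 h, the share called up went from 10.5% in the nearest class to 28.6% in the farthest. Among units longer than 3000 bp it went from 36.6% to 69.8% of those tested, and among those of 1000 bp and under from 6.16% to 10.6%.

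Length went with direction in the same manner. Of 441 tested units of 400 bp and under, 21 were up and 269 down by 48 h (4.76% and 61.0%). Of 493 units over 10000 bp, 272 were up and 147 down (55.2% and 29.8%). The order from short to long was also present with the minimum set at 0 h, where 1.71% of the shortest and 42.4% of the longest were called up. On the X chromosome, 48.7% of 113 tested units were up, against 35.2% of 2594 on the autosomes.

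**Figure D2:**
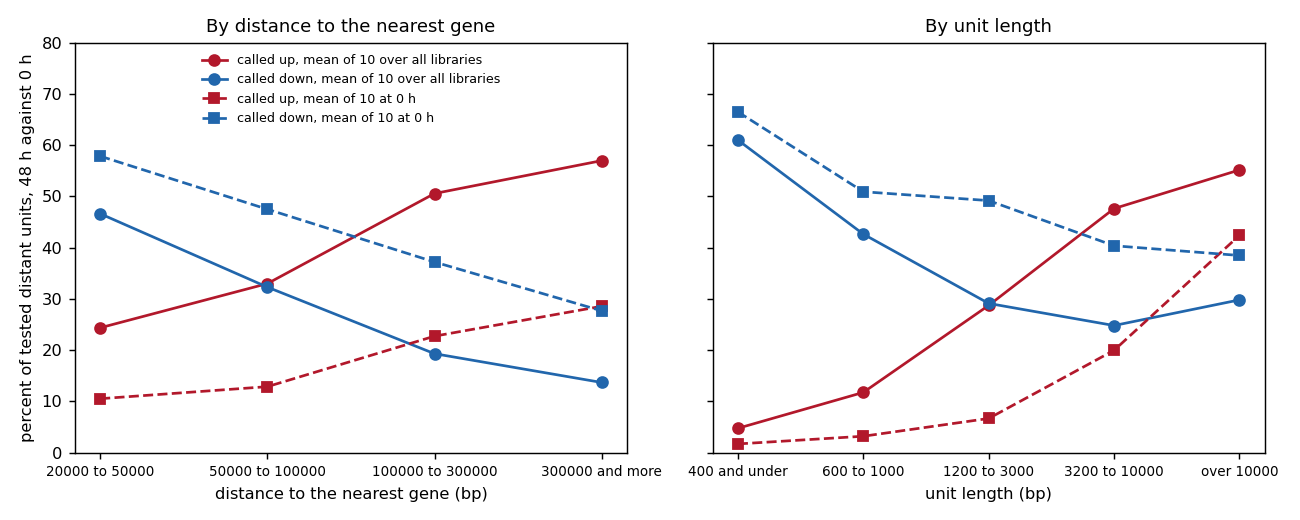
Percent of tested distant units called up (red) and down (blue) at 48 h against 0 h, by distance to the nearest gene (left) and by unit length (right), with the minimum mean over all libraries (solid lines, circles) or over 0 h (dashed lines, squares). The share called up goes from 24.4% to 57.0% with distance and from 4.76% to 55.2% with length on the solid lines.

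Units that overlap LINE copies, a class of retrotransposons that includes the autonomous LINE-1, were called up more often. LINE copies lay on the same strand in 1951 distant units, 440 of them tested, and 57.0% of these were called up and 12.5% down at 48 h, against 31.6% and 37.9% of the 2269 tested without one. The difference in the share called up was present in each distance class, at 45.4% against 22.4% from 20000 to 50000 bp and 71.8% against 50.6% beyond 300000 bp. It was also present in each length class with enough units, at 69.7% against 49.1% over 10000 bp. These shares use the minimum over all libraries, which also admits units that are high only late. With the minimum set at 0 h, 106 of 279 units with a same-strand copy were up and 63 down at 48 h. Without such a copy it was 243 and 1104 of 2086. The higher share was not particular to the same strand. With a LINE copy on the opposite strand, 55.7% of 424 tested units were up and 20.5% down at 48 h, against 32.0% and 36.2% of 2285 without one. With the minimum set at 0 h, 105 of 301 units with an opposite-strand copy were up and 95 down. Without such a copy it was 244 and 1072 of 2064. Same-strand copies were also split by the LINE name with the largest overlap. This split was made only with the minimum over all libraries, which 118 of the 1170 L1Md_T units passed. Units over L1Md_T, a young subfamily, were called up in 76.3% of 118 at 12 h and 55.1% at 48 h. Their median log2 change was 0.99 at 12 h and 0.63 at 48 h. Units over L1Md_F and L1Md_Gf names had 73.2% of 123 up at 12 h and 65.9% at 48 h, and 23.6% up at 3 h, where L1Md_T had 5.08%. Units over L1Md_A had 14 of 19 called up at 48 h, with a median log2 change of 2.24. Units over other LINE names had 59.4% of 180 up at 12 h and 50.6% at 48 h, and the median change at 48 h was 0.53 on the log2 scale. Young copies share near-identical sequence, so their reads may be placed on the wrong copy.

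Overlap with LTR copies on the same strand was excluded by the rule. By distance to the nearest same-strand copy, the intervals of the share called up overlapped between near and far units. At 48 h, 37.3% of 429 tested units with a same-strand copy under 1000 bp away were called up (95% exact interval 32.7 to 42.1%, counting error only). With none on that strand within 20000 bp it was 32.7% of 779 (29.4 to 36.2%). With the same-strand copy under 1000 bp upstream, 40.9% of 159 were up, and 34.6% of 286 with it downstream. By distance to a copy on either strand, the intervals of the nearest and farthest classes did not overlap. Under 1000 bp, overlap on the opposite strand included, 43.8% of 1029 were up (40.8 to 46.9%). From 1000 to 5000 bp it was 30.4% of 688, and from 5000 to 20000 bp 32.7% of 630. At 20000 bp and more it was 28.2% of 362 (23.6 to 33.1%). LTR copies on the opposite strand gave a wider gap: 51.8% of the 569 tested units that overlap one were called up and 27.1% down, against 31.4% and 35.6% of the 2140 that overlap none. With the minimum set at 0 h the balance turned, at 24.4% up and 45.4% down of 381 with such a copy, against 12.9% and 50.1% of 1984 without one. Of the 429 units that rose with a log2 change of 3 or more, 161 (37.5%) overlapped an opposite-strand copy, against 569 (21.0%) of all 2709 tested units. No LTR copy was listed within 5000 bp on either strand for 123 (28.7%) of the 429, against 992 (36.6%) of all tested units. The 429 were also longer, with a median of 6800 bp against 3800 bp, and longer units can overlap more copies. Of the listed repeat copies, 16696 LTR copies overlap a non-coding unit in the same direction and 9865 in the other, against 4534 and 4400 LINE copies and 988 and 9796 SINE copies. Whether the list leaves out LTR copies beside non-coding units was not tested.

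Summed signal gave a view of all 9702 units with no minimum. The 12 brightest units held 84.2 to 89.2% of it in every library, so the sum was also taken without them. The other 9690 units gave 182620, 195893 and 193969 scaled reads at 0 h and 228799, 245027 and 246663 at 48 h. All libraries at 48 h lay above those at 0 h, and the mean was 1.26 times as high (1.62 times after rescaling to the median gene). The non-coding units outside the set, without those over Rn45s, the ribosomal RNA precursor, were at 1.29 times (1.66 after rescaling). That set includes units over LTR copies and kept its brightest units, so the sums are not matched. At 12 h the mean of the distant units was 245943 ± 26571 (SD), 1.29 times that at 0 h (1.13 after rescaling). The units outside the set were then at 1.18 times (1.04 after rescaling). Units beyond 300000 bp from genes went from 31297 ± 1624 (SD) at 0 h to 49696 ± 2365 at 48 h, and units of 400 bp and under from 43983 ± 1941 to 33899 ± 2494. The groups did not overlap in either set with the deposited scaling. After rescaling, the short units were at 0.990 times their level at 0 h and the groups overlapped.

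**Figure D3:**
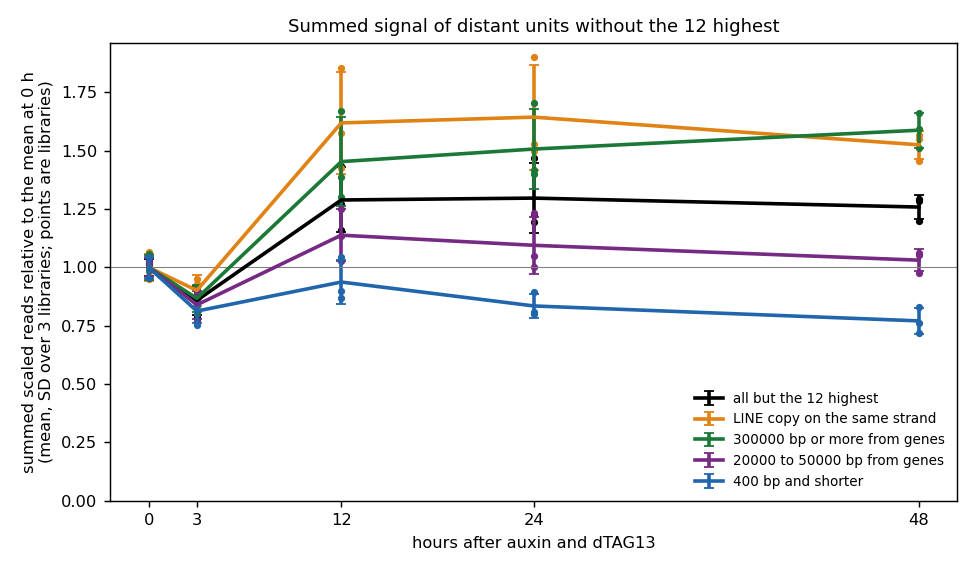
Summed scaled reads of the distant units without the 12 highest, relative to the mean at 0 h, by hours after the compounds. Lines and bars are means and SD over 3 libraries and points are single libraries, and at 48 h the units beyond 300000 bp from genes are at 1.59 times their level at 0 h and those of 400 bp and under at 0.771 times.

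None of the 6 brightest units was called at any time with the deposited scaling. The unit at chr11:109011601-109012201 had a mean of 627800 ± 32120 scaled reads (SD) before the compounds and 525300 ± 30050 at 48 h, with a log2 change of -0.26 with an SE of 0.18 (limma, adjusted p = 0.207). Units at chr3:5860201-5860801 (336800 ± 2204 at 0 h) and chr6:3200401-3201801 (223600 ± 13810) came next, all 3 on the plus strand and with no GENCODE gene. The median over tested units was 25.0, and 3 units held 65.1 to 71.4% of the summed signal of all distant units. The unit at chr1:24612401-24616201 (120900 ± 4488 at 0 h) covers the GENCODE unprocessed pseudogene Gm28437, and that at chr13:9834201-9834601 (57480 ± 2279) covers Gm24187, annotated as a miRNA. The sixth, at chr8:15519601-15520201, had 36980 ± 1888 at 0 h and 36560 ± 2179 at 48 h. After rescaling to the median gene the units on chromosomes 1 and 8 were called up at 48 h, with log2 changes of 0.41 and 0.35 (limma, adjusted p = 4.25e-06 and 0.000237). The placing of reads with several positions is not stated, so these values are uncertain.

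The units with the largest named rises were mostly long. They were almost silent at 0 h, which the ranking by log2 change favours. The unit at chr3:31410401-31450601, on the minus strand 100081 bp from the amino acid transporter gene Slc7a14, had 5.69, 5.82 and 6.86 scaled reads at 0 h. By 12 h it had 427, 529 and 491, and by 48 h 2263, 2311 and 2355. Every library from 12 h on was far above every library at 0 h, and the log2 change at 48 h was 8.35 with an SE of 0.20 (limma, adjusted p = 4.67e-27). The unit at chr13:52332401-52360601 on the minus strand had 4.88, 6.66 and 3.43 at 0 h. By 3 h it had 75.6, 27.4 and 41.1, and by 48 h 1825, 1891 and 1949. It had the largest named change at 3 h, a log2 change of 2.95 with an SE of 0.21 (limma, adjusted p = 2.32e-12), and its 3 libraries at 3 h spread more widely relative to their mean than those at 48 h. The SE is pooled over all times and was also 0.21 at 48 h, so it does not show that wider spread.

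Next came chr7:7056001-7066201, over the pseudogene Pafah1b1-ps2, which went from 1.39 ± 0.959 (SD) to 640 ± 21.5 at 48 h. Its nearest gene Zfp954, a zinc finger gene 48482 bp away, had 154 ± 9.18 and 182 ± 4.76 (limma, adjusted p = 0.117). The unit at chr5:15602801-15610001, over Gm21847, had 2 reads over the 3 libraries at 0 h and 1248 by 48 h, a ratio of 568 after division by the size factors (95% exact interval 157 to 4695, counting error only). That at chr12:64689601-64726801 had 2 and 1164 reads, a ratio of 530 (146 to 4380) after the same division. At chr3:7863401-7875001, 6.08 ± 3.31 (SD) at 0 h became 853 ± 72.6 at 48 h. The unit at chr1:90494401-90498201 had no read at 0 h and 118, 139 and 127 scaled reads at 48 h, at least 153.5-fold higher when 0 h is set to 3 reads over its 3 libraries. At chr14:45685801-45696601 the signal went from 1.10 ± 0.950 to 233 ± 15.4, and the nearest gene Ddhd1, a phospholipase 27657 bp away, rose by a log2 change of 1.4 (limma, adjusted p = 6.01e-28).

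Of these 8 units, 6 overlap an LTR copy on the opposite strand, named MTD for the unit near Slc7a14 and for that over Gm21847, MTB, RLTR42-int, LTRIS2 and ORR1D2. The unit at chr1:90494401-90498201 has its nearest copy 307 bp away and that at chr3:7863401-7875001 has it 8650 bp away. On the same strand, the nearest copy was 12 bp away at chr7:7056001-7066201 and 2383 to 23942 bp away for the others of the 8. The part of these copies in the rises was not tested. A further pair of units were among the first 3 risers at 3 h or 12 h. At chr1:94654201-94722601, a unit of 68400 bp with LINE copies and no LTR copy within 39555 bp, the signal was 3.33 ± 0.796 (SD) at 0 h, 351 ± 75.5 at 12 h and 246 ± 2.76 at 48 h. At chr11:15234801-15240201, 334 bp from an IAPEz-int copy, 0.843 ± 0.858 became 9.79 ± 2.93 by 3 h and 71.6 ± 8.67 by 12 h, with 36.7 ± 3.14 by 48 h.

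**Figure D4:**
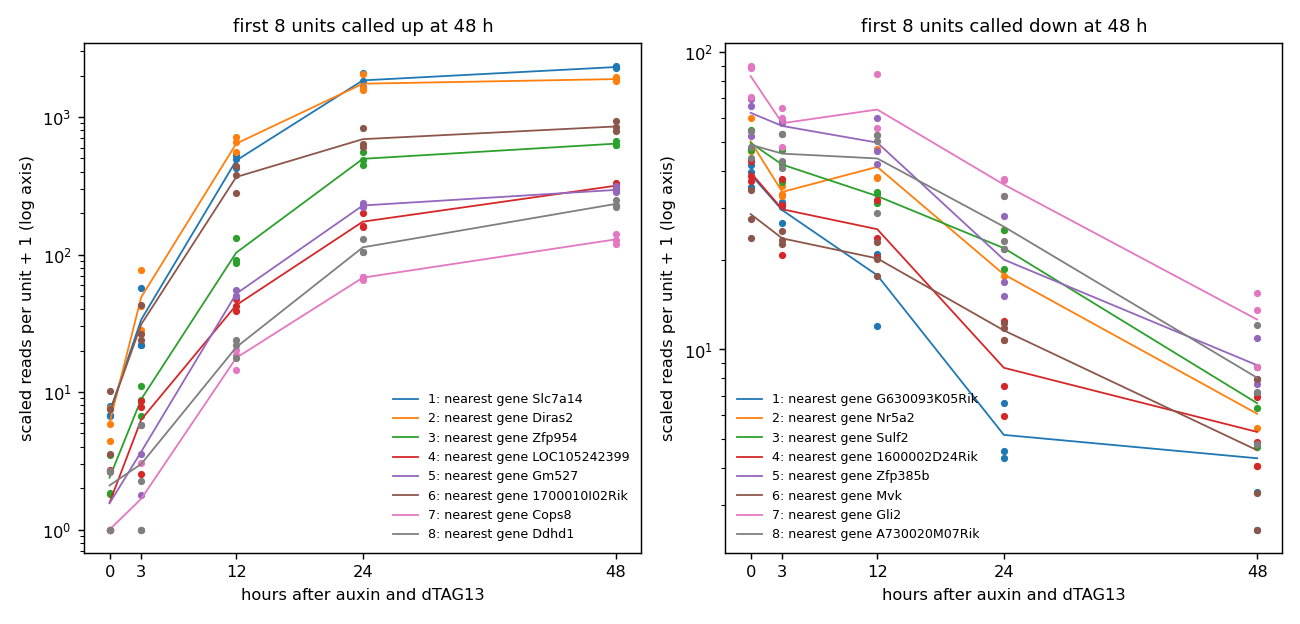
Scaled reads plus 1 on a log axis by hours after the compounds, for the first 8 distant units called up (left) and the first 8 called down (right) at 48 h by the naming rule. Each colour is a unit, named by its nearest gene, points are the 3 libraries of a time and lines join the means, and the unit near Slc7a14 goes from 6.12 to 2310 while that near Gli2 goes from 82.1 to 11.6.

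The first 8 named falls at 48 h started from 27.5 to 82.1 scaled reads at 0 h and were smaller in fold than the named rises. The size of a fall is limited by the level at 0 h and by the 1 added before the log. The unit at chr13:47854601-47862801 on the plus strand, 47634 bp from G630093K05Rik, had 34.1, 40.8 and 38.6 scaled reads at 0 h and 1.48, 2.32 and 6.11 at 48 h, with a log2 change of -3.32 with an SE of 0.32 (limma, adjusted p = 5.47e-11). That nearest transcript fell too, by a log2 change of -3.61 (limma, adjusted p = 8.85e-20). At chr1:119075201-119089401, 21581 bp from Gli2, a transcription factor of Hedgehog signalling, the libraries had 69.9, 89.0 and 87.4 at 0 h and 12.6, 7.75 and 14.5 at 48 h. The change of that unit was -2.75 with an SE of 0.21 (limma, adjusted p = 1.71e-13), and Gli2 itself went from 6751 ± 560 (SD) to 1893 ± 24.5.

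At chr1:137173801-137183401, 213352 bp from Nr5a2, the signal went from 49.2 ± 8.69 (SD) to 5.08 ± 2.41 at 48 h. The unit at chr16:95951401-95956401 went from 38.4 ± 3.23 to 4.28 ± 1.47, and that at chr2:77344001-77353801, near the zinc finger gene Zfp385b, from 61.6 ± 9.15 to 7.85 ± 1.81. At chr5:114482601-114485801, near Mvk, an enzyme of the cholesterol pathway, it went from 27.5 ± 5.32 to 3.58 ± 2.97, and at chr3:121582201-121589601 from 47.9 ± 4.99 to 7.03 ± 3.70. The eighth is the unit at Gm30536 described above, 38517 bp from Sulf2. None of these 8 units was called at 3 h, where their adjusted limma p ran from 0.0851 to 0.808.

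A separate set of units fell early. A pair of units on the minus strand near Rbpj, the DNA-binding factor of Notch signalling, lie opposite the GENCODE span of that gene. At chr5:53498001-53507401 the libraries had 78.9, 82.4 and 82.3 scaled reads at 0 h. They had 40.5, 40.7 and 44.2 by 3 h and 31.3, 23.7 and 31.6 by 12 h, with a log2 change at 12 h of -1.47 with an SE of 0.20 (limma, adjusted p = 1.46e-07). At chr5:53465801-53471001 they had 54.5, 52.4 and 44.6 at 0 h and 18.9, 21.0 and 35.7 at 3 h. A short unit at chr4:125271601-125272001 had the largest named fall at 3 h, from 33.4 ± 0.798 (SD) to 15.0 ± 1.48 (log2 change -1.10, limma, adjusted p = 0.00580). Its nearest gene Zc3h12a, an RNA-degrading enzyme 143719 bp away, had a log2 change of -1.10 at 48 h (limma, adjusted p = 1.63e-10). At chr3:9213001-9213401, near Zbtb10, the signal went from 28.9 ± 1.75 to 13.5 ± 3.50 at 3 h and was 17.0 ± 4.28 at 48 h, where the call was lost after rescaling to the median gene (adjusted p = 0.179). The short units at chr1:59740401-59741001, near Bmpr2, and at Gm4610 (chr3:122390401-122391001) went from 35.0 ± 2.36 to 13.8 ± 8.30 and from 42.2 ± 3.89 to 15.6 ± 2.77 at 12 h. The unit at chr6:82701601-82704801, near Hk2, fell from 32.6 ± 2.85 to 6.45 ± 1.09 at 24 h.

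The unit and its nearest gene often moved the same way. A tested gene lay within 200000 bp of 1696 tested units, and Spearman's rho between the log2 changes at 48 h was 0.37 across units (0.37 after rescaling), which share 1108 genes and the same libraries. In all, 7.65% of 15261 tested genes were called up and 58.4% down at 48 h. Where the nearest gene was called up, 141 of 254 units were up and 38 down (55.5% and 15.0%). Where it was called down, 137 of 805 were up and 433 down (17.0% and 53.8%). Where it was not called, 181 of 637 were up and 239 down (28.4% and 37.5%). Of all tested distant units, 35.7% were up and 33.8% down. Beside the 55 genes that fell by a log2 change of 1 or more, 53 of 77 units were down. Beside the 73 genes that rose by as much, 74 of 105 units were up.

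**Figure D5:**
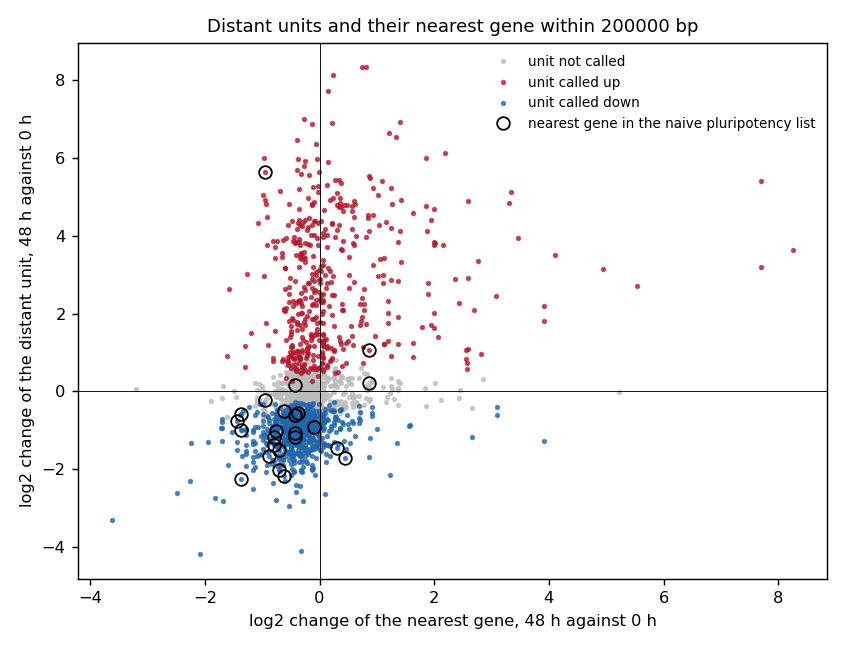
Log2 change at 48 h against 0 h of 1696 distant units (vertical axis) and of the nearest gene within 200000 bp (horizontal axis), with units called up in red, called down in blue and not called in grey. Open circles mark units whose nearest gene is in the naive pluripotency list, of which 19 of 25 were called down with the deposited scaling.

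Units near genes of the naive pluripotency list, 36 genes linked to stem cells, were mostly lower. There were 72 such units beside 19 of the genes. Of the 25 tested, 2 were called up and 19 down at 48 h, with a median log2 change of -1.0, where 33.8% of tested distant units and 39.4% of all non-coding units were down. After rescaling 3 of 24 were up and 14 down, where 19.8% and 21.7% were down. The unit at chr12:12879001-12905401 lies 30692 bp from Mycn, a transcription factor of the Myc family, and had 386, 456 and 379 scaled reads at 0 h. It had 133, 137 and 134 by 24 h and 84.2, 88.3 and 81.0 by 48 h. It fell by a log2 change of -2.25 with an SE of 0.12 (limma, adjusted p = 6.01e-18), while Mycn changed by -1.37. At chr4:55471001-55485201, 41936 bp from Klf4, a reprogramming factor, the libraries had 492, 546 and 495 at 0 h and 149, 181 and 155 at 48 h. That unit changed by -1.66 with an SE of 0.12 (limma, adjusted p = 1.68e-14) and Klf4 by -0.87.

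One of the 2 units called up went against its gene. The unit at chr1:137000801-137005401, 40352 bp from Nr5a2, an orphan nuclear receptor that can activate Pou5f1, had 3.25, 0 and 1.72 scaled reads at 0 h and 115, 115 and 103 at 48 h. It rose by 5.63 with an SE of 0.40 (limma, adjusted p = 1.86e-14), while Nr5a2 went from 7564 ± 604 (SD) to 3928 ± 88.1, a log2 change of -0.94. Nr5a2 thus lies nearest to one named unit that rose and to another that fell. No LTR copy was listed within 30742 bp of the unit that rose.

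The other lists had few units. Beside genes of the 2-cell-like list, which mark a rare state resembling the early embryo, 5 of 36 units were tested, 4 were called up and none down, where 35.7% of tested distant units and 29.3% of all non-coding units were up. At chr3:93853401-93860201, 26283 bp from Tdpoz3, there was 1 read at 0 h and 346 at 48 h, a ratio of 315 after division by the size factors (56.2 to 12480, exact interval for counting error). At chr3:93863401-93874401 there were 1 and 200 reads. The unit at chr7:11097201-11104001, near Zscan4d, went from 3.04 ± 1.24 (SD) to 33.7 ± 5.17, while Zscan4d went from 12.8 ± 3.04 to 420 ± 35.0. All 3 overlap an LTR copy on the opposite strand. They were low at 0 h and passed the minimum on the mean over all libraries through their later signal. Calls up are favoured among units admitted that way, so the 4 calls cannot show a rise particular to this list. The list was not tested with the minimum set at 0 h. Of 7 tested units beside trophectoderm genes, 5 were down and none up, and after rescaling 3 were down, beside the shares of 33.8% and 19.8% down among tested distant units and 39.4% and 21.7% among all non-coding units. The unit at chr2:172513201-172523201, near Tfap2c, went from 53.1 ± 3.03 to 23.3 ± 0.993, after 61.1 ± 4.59 at 12 h. At chr11:57918201-57918601, near Hand1, it went from 213 ± 16.9 to 134 ± 16.0, with no call after rescaling (adjusted p = 0.0547), and at chr11:57876801-57877401 from 54.6 ± 8.54 to 25.3 ± 2.32. For the epiblast and germ layer list, 1 of 3 tested units was down, at chr12:104433401-104441801 near Gsc, from 87.8 ± 2.30 to 43.5 ± 3.39. For primitive endoderm, 1 of 2 was up, at chr1:4567601-4571601 near Sox17, from 4.76 ± 2.73 to 15.5 ± 2.06. That unit too passed the minimum through its later signal.

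In divergent pairs, the layout of an enhancer or of a bidirectional promoter, partners mostly moved the same way where both were tested. Units in a pair were called about as often as other distant units, with 36.6% of 183 up and 33.3% down at 48 h, against 35.7% and 33.8% of 2526. There were 221 pairs of 2 distant units, and both partners were tested in 26. At 48 h both were called up in 7 pairs and both down in 7, none had calls in opposite directions, 9 had 1 call and 3 had none. Pearson's r between partners' log2 changes was 0.90 over the 26 pairs, whose starts lie side by side. Neighbouring units outside pairs were not compared in this way. The most abundant pair has Olfr118, 321410 bp away, as its nearest gene of the list. Its plus-strand unit (chr17:37995801-38031201) went from 2255 ± 171 (SD) to 1462 ± 83.3 at 48 h, a log2 change of -0.62 with an SE of 0.11 (limma, adjusted p = 1.43e-05). Its minus-strand unit (chr17:37994401-37995801) went from 20.0 ± 2.74 to 10.6 ± 1.92, a change of -0.86 (limma, adjusted p = 0.0117) that was no longer called after rescaling (adjusted p = 0.120).

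There were 5 distant units that hold miRNA hairpins of the RefSeq list, 7 hairpins in all, which are cut from longer precursor transcripts. The mature sequences of the best known follow, read from RefSeq on GRCm38.p6, with the seed, bases 2 to 8, in capitals, since the seed pairs with target messenger RNAs. The 2 miR-181 members share 1 seed.
mmu-miR-181a-5p: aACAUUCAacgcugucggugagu
mmu-miR-181b-5p: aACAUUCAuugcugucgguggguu
mmu-miR-193b-3p: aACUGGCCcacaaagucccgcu
mmu-miR-365-3p: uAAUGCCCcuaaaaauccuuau

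The unit of Mir181a-1 and Mir181b-1 (chr1:137931401-137968201, plus strand) had 97.6, 115 and 96.9 scaled reads at 0 h. By 24 h it had 39.9, 56.1 and 71.7, and by 48 h 107, 133 and 138. It was below all libraries of 0 h at 24 h, with a log2 change of -0.91 (limma, adjusted p = 0.00013). At 48 h the change was 0.28 (limma, adjusted p = 0.187), and after rescaling it was 0.64 and called (adjusted p = 0.002). The unit of Mir193b and Mir365-1 (chr16:13448201-13455401, plus strand) had 17.1, 20.8 and 25.7 at 0 h and 32.4, 47.7 and 38.9 at 24 h, a log2 change of 0.88 (limma, adjusted p = 0.00156). At 48 h its change was 0.59 (limma, adjusted p = 0.0237), a call lost without replicate 1 at 0 h (0.114) or replicate 2 or 3 at 48 h (0.121 and 0.0627, adjusted p). The units of Mir344f, Mir344i and Mir3473b had no call at 48 h, with adjusted limma p of 0.0886, 0.0704 and 0.879.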

How the data were processed

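TT-seq reads of 15 libraries (5 times, 3 biological repeats each, 2 sequencing runs a library) were aligned to mm10 (GRCm38), with STAR 2.5.2a, DESeq2 and deepTools named in the submitters' processing notes. The deposited signal of each unit is its reads divided by 1 size factor per library, as its values show. A yeast spike-in is mentioned in the labels' protocols, and whether the factor came from it is not stated. In each library 99.9974 to 99.9991% of values were whole multiples of 1 step (within 0.05 of a whole number), so reads were recovered. The second deposited signal, a mean over libraries divided by unit length, was used only as a check, and the authors' calls were copied from their deposited table.

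Changes against 0 h were tested with limma 3.58.1 (R 4.3.3, intensity trend) on log2(signal + 1), a log2 scale made here from the deposited signal, which understates changes of faint units. All 15 libraries entered 1 fit over the 15730 non-coding units with a mean of at least 10, with Benjamini-Hochberg adjustment and a call at adjusted p under 0.05. edgeR 4.0.16 on the recovered reads with the deposited scaling called 977 distant units up and 937 down at 48 h. Rescaling divided each library by its median ratio over genes. Overlaps used bedtools 2.31.1. Procedures were tested on simulated data.

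Units were named by position: called, with a mean above the lowest 25% of tested non-coding units and no overlap with the 0 h libraries, ranked by log2 change, the first 8 each way at 48 h and the first 3 each way at 3, 12 and 24 h. Added were the 6 brightest at 0 h, the 4 brightest per kb of at least 500 bp, up to 3 with the smallest adjusted p beside each gene list, and the most abundant divergent pair. Units at RefSeq starts and units holding miRNAs were added after their values were seen. The distant units and the gene lists were chosen with earlier results of these data known. One named unit is not reported here. Confidence intervals are exact at 95% and cover counting error only. GC content and words of the units themselves were not analysed here.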

Additional observations from a re-analysis of the deposited data

How the results depend on the processing

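Counts of calls and medians depended most on the minimum, the scaling and the choice of units. With no minimum, falls numbered 135 at 3 h, 1032 at 24 h and 1530 at 48 h, rises 1866 at 12 h, 2402 at 24 h and 2585 at 48 h, and the median at 48 h was 0.13. With the minimum at 0 h, rises numbered 64, 454, 436 and 349 at 3, 12, 24 and 48 h, with medians of -0.28, -0.06, -0.28 and -0.52. After rescaling over genes, falls were 57 at 3 h, 488 at 12 h and 540 at 48 h, and medians 0.06, 0.12 and 0.31. With TMM scaling in edgeR, falls were 66 at 3 h and 459 at 12 h, with medians of 0.09 at 3 h and at 48 h. With DESeq2, falls were 28 at 3 h and 533 at 48 h, with medians of 0.08 and 0.22. At 3 h, 147 units rose when only the 2 times were fitted, 138 fell without the intensity trend and 130 fell in 1 fit over all units of the table. Leaving out 1 library gave 89 to 197 falls at 3 h and 167 to 255 at 12 h. The cause was not tested.

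Narrower sets hold fewer units by construction. With no LTR copy within 5000 bp, rises were 73, 356, 355 and 308 and falls 71, 110, 226 and 322, with a median of -0.13 at 48 h. At 50000 bp or more from genes, falls were 88, 91, 220 and 341, with medians of 0.58, 0.55 and 0.34 at 12, 24 and 48 h. With no LTR copy on either strand the median at 48 h was -0.16.

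Summed signal after rescaling came to 1573269, 1410719 and 1831959 at 0, 12 and 48 h. With no LTR copy on either strand it was 1613931, 1769753 and 1436087 at 0, 24 and 48 h. With none within 5000 bp it was 1302124, 1088041, 1309759, 1421659 and 1144969 over the 5 times, and at 50000 bp or more from genes 1358004, 1132034, 1373364, 1521467 and 1210333. Without the 12 brightest units it was 190827, 163844, 245943, 247486 and 240163. This last alternative, the set without GENCODE protein-coding genes and, for named units only, the fit over all units of the table were chosen after seeing the data.

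A replicate block gave 243, 1064, 1083 and 977 rises and 231, 276, 618 and 925 falls over the later times. Unit by unit, same-numbered libraries did not deviate together, with correlations from -0.03 to 0.055. Shifts shared by all units of a library do not enter these correlations, so they cannot settle whether the numbers give a pairing. The shift of the median gene was highest in replicate 2 at 0, 12, 24 and 48 h and lowest in replicate 2 at 3 h. Of 145 calls of named units, 22 were lost under at least 1 alternative and none reversed. Uncalled values reversed 3 times: at chr1:24612401-24616201 to -0.17 at 12 h after rescaling, and at chr8:15519601-15520201 at 48 h to 0.35 after rescaling and 0.27 with DESeq2. The mean of 6993 of the 9702 units was below the minimum, and changes in them were often not detectable at this depth.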
